A study of Caenorhabditis elegans with 40 samples.

Results

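Between the second and the third larval stage (L2 and L3) a hermaphrodite of Caenorhabditis elegans sheds its cuticle, induces its vulval precursor cells, extends the gonad arms and sends its first germ cells into meiosis. The stage change of the whole transcriptome was described here in the 4 libraries of L3 hermaphrodites and the 4 libraries of L2 hermaphrodites, chosen by their stage and sex labels, which make 8 of the 40 libraries of the series. Both groups were N2 wild-type animals, the standard laboratory strain, grown at 25 °C, and each library was RNA from a large pool of whole worms. The other 32 libraries cover L1, L4 and young adult (YA) hermaphrodites, and males at all 5 stages, with 4 biological repeats in each of the 10 groups. The male strain was dpy-28(y1);him-8(e1489). The him-8 mutation makes many males, and the temperature-sensitive dosage compensation mutation kills hermaphrodites at 25 °C. The strain therefore differs wherever the sex does, and their effects cannot be told apart. No label gave the hours of growth, so the phase of each pool within its molting cycle cannot be told apart from its stage.

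RNA was measured by bulk MARS-seq, which reads the 3′ ends of transcripts and counts each original molecule once by its unique molecular identifier (UMI). The L3 hermaphrodite libraries held 5819755, 6513643, 6701241 and 5119242 UMIs, and the L2 hermaphrodite libraries 5311215, 5393045, 7226524 and 5732042. Levels are given as CPM, the usual measure of counts relative to library size, after scaling each library by edgeR's trimmed mean of M-values (TMM), and are compared only within a gene. Log2 expression correlated across genes at 0.968 to 0.986 among the L3 libraries, 0.979 to 0.988 among the L2 libraries and 0.948 to 0.961 between the stages. The first principal component of the 8 libraries held 54% of the variance and set all 4 L3 libraries (scores 30.3 to 38.4) apart from all 4 L2 libraries (-35.2 to -33.2). The second held 18.1% and set L3 replicate 1 (36.4) and L2 replicate 1 (28.1) apart from the other 6 (-25.8 to 0.31), so the counts below are also given without those libraries. RNA of whole animals cannot tell fewer cells of a type from less RNA per cell.

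Of the 11933 genes in the table, 8110 passed the filter on low counts, and 435 of them rose and 187 fell in L3 hermaphrodites compared with L2 hermaphrodites. A call had to pass each of these criteria. The p of edgeR's quasi-likelihood test, adjusted after Benjamini-Hochberg over all genes tested, had to be 0.05 or lower, the log2 fold change 1 or more in size, and the mean normalized count of the 8 libraries 5 or more. Higher calls made up 5.36% and lower calls 2.31% of the genes tested, together 7.67%. The higher calls were also the larger ones: their median log2 fold change was 1.76, and 90 of the 435 passed 4, against a median of -1.30 and 1 gene of the 187 for the lower calls. The 4 libraries of the stages did not overlap for 420 of the 435 and 180 of the 187, where 18.0% of all tested genes lay wholly above and 11.7% wholly below. The balance of the directions depended on the scaling. With library totals in place of TMM factors, an alternative chosen after seeing the data, the calls were 290 higher and 391 lower, so that 42.6% of calls were higher in place of 69.9%. These 290 were all among the 435 and all 187 lower calls were kept, and the median log2 fold change of all tested genes was -0.11 in place of 0.10. Without replicate 1 of both stages, also chosen after seeing the data, 363 genes were higher and 123 lower.

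**Figure D1:**
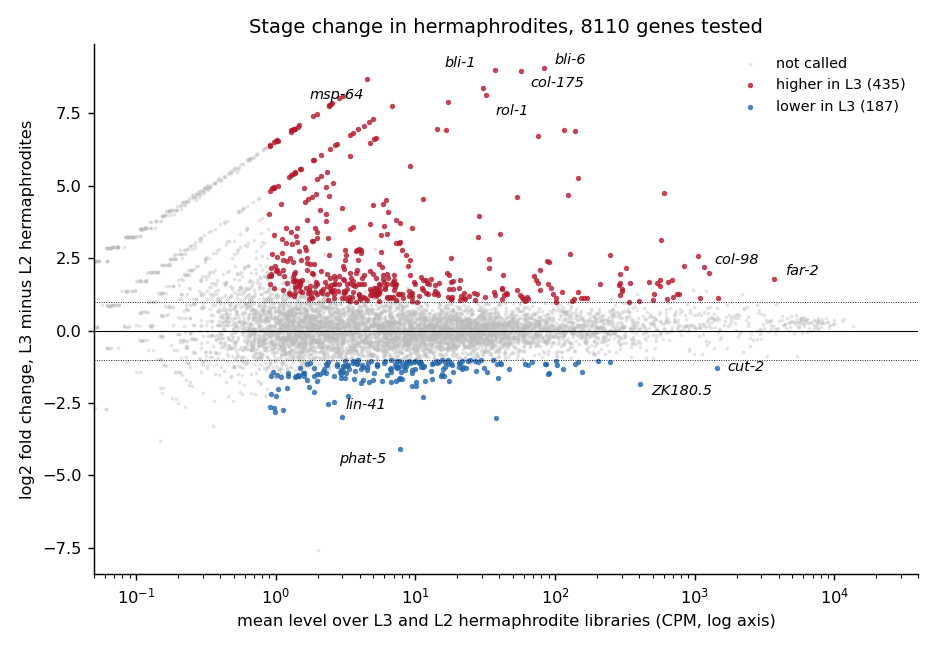
Log2 fold change of L3 minus L2 hermaphrodites (y axis) against the mean level over both stages in CPM (x axis, log scale) for the genes tested, with the 435 called higher in L3 in red, the 187 called lower in blue and the rest in grey; dotted lines mark a log2 fold change of 1 in either direction. The red points reach 9.07 for bli-6 while 1 blue point, phat-5 at -4.07, lies below -4, and the rising rows of points at low levels are genes with no or few counts in L2 libraries.

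The genes that rose were mostly genes of later stages. Over the 5 hermaphrodite stages, 237 of the 435 had their highest mean in young adults (54.5%, against 32.1% of all genes tested), 122 in L4 (28.1%, against 22.1%) and 62 in L3 itself (14.3%, against 8.45%). The genes that fell were mostly past their highest level: 94 of the 187 were highest in L1 (50.3%, against 28.1% of all genes tested) and 87 in L2 (46.5%, against 9.32%). Since L3 and L2 values chose both sets, these shares are a description.

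**Figure D2:**
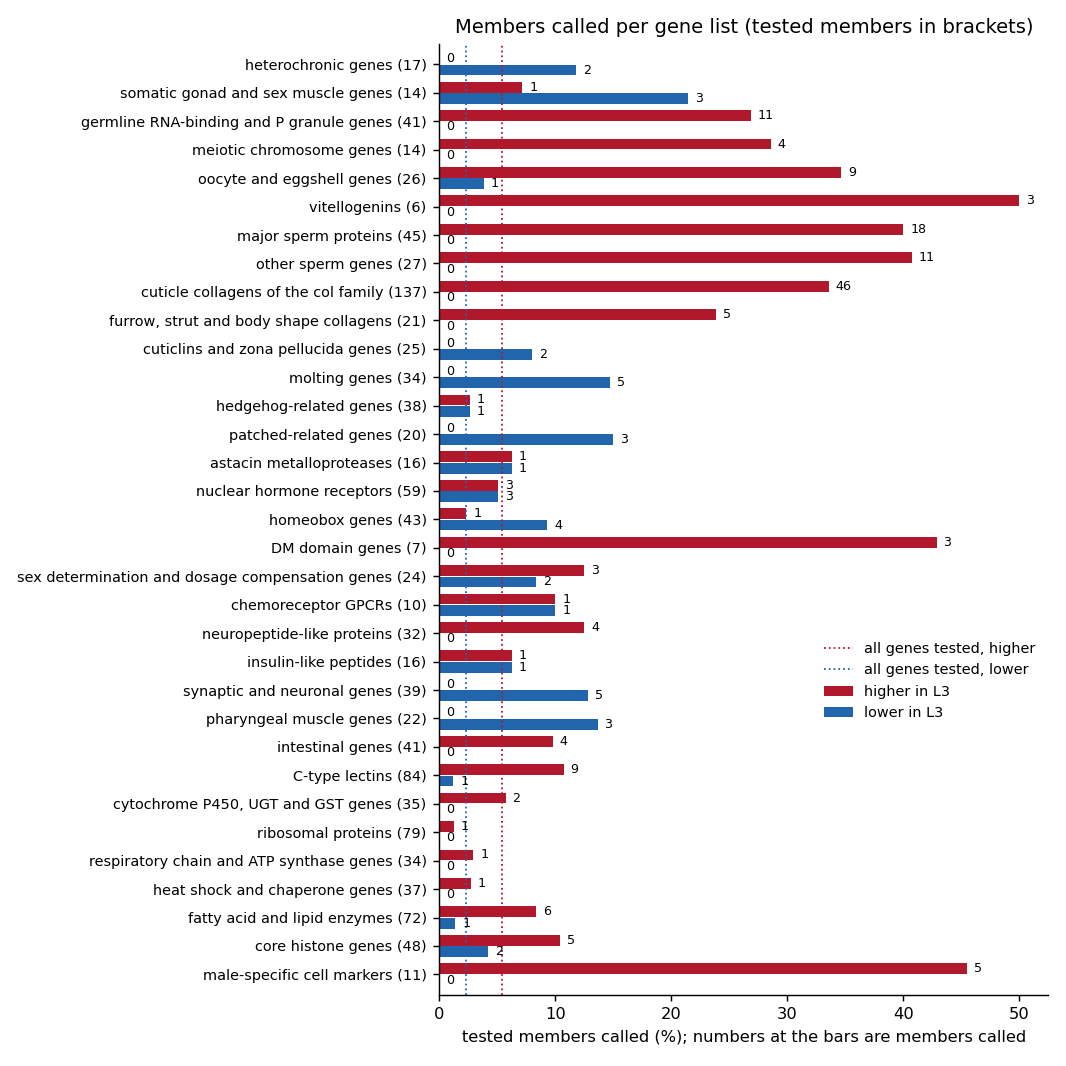
Share of the tested members of each gene list that were called higher (red) or lower (blue) in L3 than in L2 hermaphrodites, in percent, for the lists with any call; numbers at the bars count the members called and dotted lines mark the shares over all genes tested. Collagen, sperm, yolk and germline lists lie right of the red line, and lists of molting, patched-related, homeobox and synaptic genes lie right of the blue line.

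The cuticle is a collagen matrix that the hypodermis secretes afresh at each molt, with a different set of collagens for each stage, and collagens made up the largest called family. Of the 137 tested genes of the col family, 46 rose (33.6%, against 5.36% of all genes) and none fell, with a median log2 fold change of 0.89 over all 137. Under the other settings 41 to 50 rose, apart from 35 in a test against the fold minimum itself, and up to 3 fell. The family took 7.24%, 8.02%, 8.08% and 7.48% of the UMIs in L3 libraries and 5.44%, 5.6%, 5.79% and 5.65% in L2 libraries, with no overlap between the stages.

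The largest changes were in collagens that were near or at the floor in L2. The gene bli-6 (chromosome IV, 6377065 to 6378168 in WBcel235), whose loss blisters the adult cuticle, had 129, 141, 242 and 149 CPM in L3 libraries, against 0.177, 0.351, 0.408 and 0.177 CPM in L2 libraries. Its log2 fold change was 9.07 (SE 0.42, adjusted p = 1.08e-19), the largest of the genes called. The struts that join the layers of the adult cuticle are built with bli-1 and bli-2. Levels of bli-1 (chromosome II, 10708960 to 10712156) were 71.4, 71.1, 87.6 and 65.2 CPM in L3 libraries, against 0.177, 0.176, 0.136 and 0 CPM in L2 libraries, where it had 3 counts in all, a ratio of 604 with a 95% counting interval of 206 to 2930. Levels of bli-2 were 269, 265, 296 and 272 CPM in L3 libraries, against 2.3, 1.93, 1.36 and 3.72 CPM in L2 libraries (log2 fold change 6.89, SE 0.43, adjusted p = 1.12e-15). For rol-1, in which mutants roll as adults, the values were 38.6, 86, 75.9 and 56.7 CPM in L3 libraries and 0.177, 0, 0.272 and 0.354 CPM in L2 libraries (8.15, SE 0.47). In each of these 4 collagens every L3 library lay above every L2 library. Of the 21 furrow, strut and body shape collagens 5 rose (23.8%, against 5.36% of all genes). Beside these 4, the body shape collagen dpy-17 rose, with 10.4 ± 2.38 CPM in L3 and 1.05 ± 0.299 CPM in L2 (SD, n = 4 each).

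Other collagens rose with them. Levels of col-175 (chromosome X, 9233638 to 9234618) were 102, 125, 127 and 104 CPM in L3 libraries, against 0.530, 0, 0 and 0.354 CPM in L2 libraries (log2 fold change 8.97, SE 0.44, adjusted p = 3.17e-19). The same pattern held in col-63 (61.0 ± 19.9 CPM in L3 and 0.157 ± 0.184 CPM in L2), col-96 (28.6 ± 5.73 and 0.211 ± 0.174 CPM), col-138 (230 ± 57.9 and 1.89 ± 0.94 CPM), col-49 (149 ± 30.8 and 1.42 ± 0.59 CPM) and col-38 (285 ± 60.1 and 7.39 ± 1.20 CPM; SD, n = 4 each). None of the 4 L3 libraries overlapped an L2 library in any of them. Most of these genes were far higher again in L4 hermaphrodites, where the mean was 2208 CPM for bli-6, 221 CPM for bli-1, 885 CPM for bli-2, 1472 CPM for rol-1, 2291 CPM for col-175 and 3669 CPM for col-138. In young adults they were back at 155, 3.18, 11.7, 56.9, 78.9 and 99.8 CPM in that order of genes.

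A second pattern held in collagens that were high in L1, low in L2 and high again in L3. Levels of col-98 (chromosome III, 13019008 to 13020226) were 1646, 1813, 2102 and 2043 CPM in L3 libraries, against 381, 413, 418 and 464 CPM in L2 libraries (log2 fold change 2.18, SE 0.27, adjusted p = 5.61e-08). Its means in L1, L4 and young adult hermaphrodites were 2113, 952 and 5868 CPM. For col-103 the values were 1130, 1546, 1207 and 1629 CPM in L3 libraries and 283, 306, 236 and 351 CPM in L2 libraries, with 1899 CPM in L1, 562 CPM in L4 and 3155 CPM in young adults. The pattern differed in col-145, with 1601, 1883, 1776 and 1988 CPM in L3 libraries, against 282, 305, 291 and 346 CPM in L2 libraries, and only 10.9 CPM in L1. Of the 46 collagens that rose, 18 had an L1 mean more than 2 times their L2 mean, and 10 had a lower mean in L4 than in L3.

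**Figure D3:**
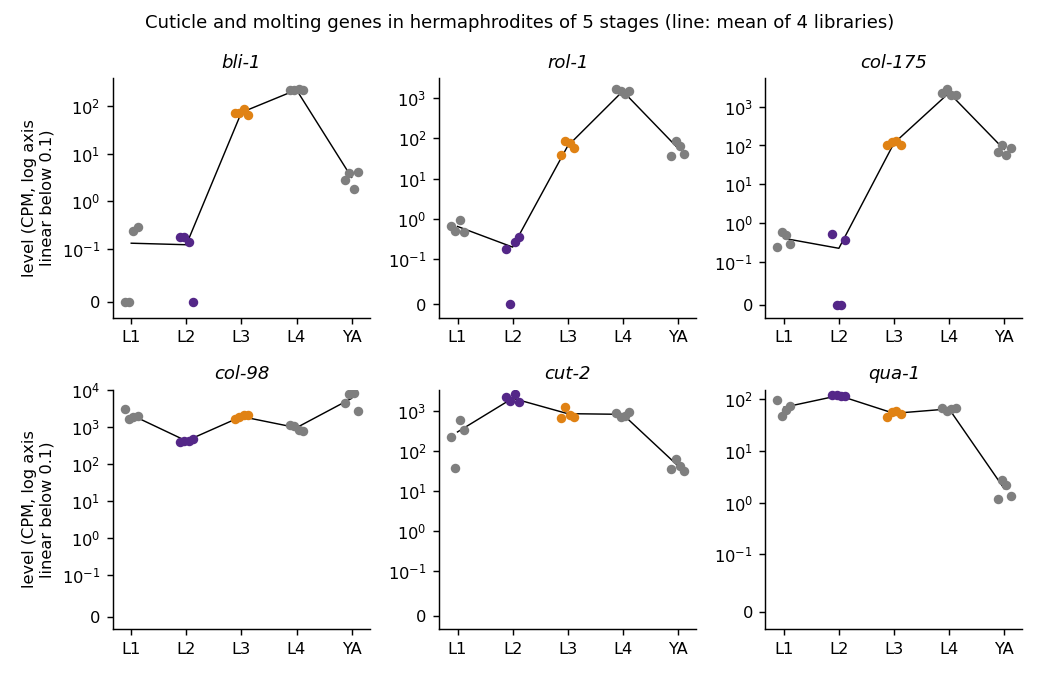
Levels of 6 cuticle and molting genes in CPM (y axis, logarithmic above 0.1) in each hermaphrodite library of L1, L2, L3, L4 and YA (x axis), with L3 points in orange, L2 points in purple and other stages in grey, and a line through the means. The genes bli-1, rol-1 and col-175 stand near 0 in L2 and at 38.6 CPM or more in every L3 library, col-98 dips in L2 and L4, and cut-2 and qua-1 are lower in L3 than in L2.

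Not all matrix genes rose. The furrow collagens dpy-2, dpy-3, dpy-7, dpy-8, dpy-9 and dpy-10, which shape the ring-like furrows of every larval cuticle and are named here after their values were seen, were not called in either direction. With library totals 2 of the 21 furrow, strut and body shape collagens fell. The 21 together took 1.26% to 1.58% of UMIs in L3 libraries and 2.00% to 2.21% in L2 libraries, although all 5 of their calls were higher. Cuticlins are insoluble cuticle proteins. Of the 25 tested cuticlin and zona pellucida genes 2 fell (8.0%, against 2.31% of all genes) and none rose, while 5 fell with library totals and none in a fit of the 20 hermaphrodite libraries alone. Levels of cut-2 (chromosome V, 13414949 to 13416064) were 652, 1212, 802 and 707 CPM in L3 libraries, against 2176, 1696, 2664 and 1630 CPM in L2 libraries (log2 fold change -1.28, SE 0.40, adjusted p = 0.0256). The stages did not overlap, yet leaving out any 1 of 5 of the 8 libraries (L2 replicates 1 and 3, L3 replicates 1, 3 and 4) ended the call, with adjusted p up to 0.0912. Levels of cutl-4 were 1.11, 1.13, 0.357 and 0.245 CPM in L3 libraries and 0.884, 1.58, 2.72 and 3.72 CPM in L2 libraries, which overlap. Its call ended without L2 replicate 3 or 4 or L3 replicate 3 or 4 (adjusted p up to 0.121).

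Some genes that act in the molt fell. Of 34 tested molting genes, ptr-16 and ptr-18 included, 5 fell (14.7%, against 2.31% of all genes) and none rose, with a median log2 fold change of -0.40. In 15 of the 34 the 4 L3 libraries lay wholly below the 4 L2 libraries (44.1%, against 11.7% of all genes). Levels of qua-1 (chromosome II, 8198803 to 8204004), a hedgehog-related protein needed for molting, were 46.6, 57.2, 58.4 and 52 CPM in L3 libraries, against 119, 122, 115 and 118 CPM in L2 libraries (log2 fold change -1.15, SE 0.21, adjusted p = 0.000103). The peroxidase gene skpo-2 had 24.3, 31.9, 26.1 and 26 CPM in L3 libraries, against 73.3, 65.2, 68.3 and 61.6 CPM in L2 libraries (-1.31, SE 0.25). For nhr-25, a nuclear receptor of the Ftz-F1 class that acts in molting and in the hypodermis, values were 11.9, 7.09, 10.9 and 8.83 CPM in L3 libraries and 27.7, 19.7, 22.6 and 21.8 CPM in L2 libraries (-1.25, SE 0.26, adjusted p = 0.000655). Patched-related membrane proteins also act in molting. Of 20 tested members 3 fell, against 2.31% of all genes, with a median of -0.81 over the 20. They were ptr-5 (8.10 ± 0.687 CPM in L3 and 18.2 ± 1.5 CPM in L2), ptr-16 (4.74 ± 1.56 and 12.2 ± 2.28 CPM) and ptr-18 (0.893 ± 0.253 and 3.07 ± 1.34 CPM; SD, n = 4 each). The call of ptr-18 ended without any 1 of L2 replicates 2 and 4 and L3 replicates 1, 3 and 4 (adjusted p up to 0.118). With library totals the molting genes that fell numbered 10 and the patched-related genes 8, and without replicate 1 of both stages 3 and 1. Leaving out L2 replicate 3 gave 5 patched-related genes, and the test against the fold minimum itself called none of either list. Without replicate 1 of both stages the call of ptr-16 ended too (adjusted p = 0.0619). The uncharacterised gene ZK180.5 was among the most abundant genes that fell, with 152, 236, 167 and 152 CPM in L3 libraries, against 783, 512, 785 and 464 CPM in L2 libraries (-1.85, SE 0.49). Its call ended without replicate 1 of both stages (adjusted p = 0.0723). Among astacin metalloproteases, secreted enzymes of which some act on the cuticle, nas-15 fell (10.1 ± 3.57 CPM in L3 and 27.3 ± 6.78 CPM in L2) and nas-9 rose (43.7 ± 3.61 and 19.6 ± 2.2 CPM; SD, n = 4 each). The call of nas-15 ended with the 20 hermaphrodite libraries alone and that of nas-9 with library totals.

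Heterochronic genes set which larval stage a cell's division pattern belongs to. Early-acting members hold back later fates, and the let-7 family of microRNAs, whose RNAs are not read by this assay, represses targets such as lin-41 and hbl-1 so that lin-29 can act at the end of larval life. The data held 19 heterochronic genes, of which 17 were tested. Of these 16 had a negative log2 fold change, and 10 (58.8%) had L3 libraries wholly below L2 libraries (11.7% of all genes did). Calls were made for 2 that fell (11.8%, against 2.31% of all genes), or 4 with library totals. Levels of lin-41 (chromosome I, 9334800 to 9342496), a TRIM-NHL RNA-binding protein, were 0.371, 1.13, 0.715 and 0.981 CPM in L3 libraries, against 3.53, 4.74, 4.76 and 4.78 CPM in L2 libraries. Its log2 fold change of -2.45 (SE 0.56, adjusted p = 0.00185) was the largest in this list. Levels of hbl-1 (chromosome X, 5822142 to 5827755), a zinc finger factor related to Hunchback, were 6.12, 4.03, 6.25 and 4.91 CPM in L3 libraries, against 14.3, 16.9, 13.3 and 10.5 CPM in L2 libraries (-1.36, SE 0.36, adjusted p = 0.00765). Neither gene's stages overlapped.

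The other heterochronic genes stayed under the fold minimum or the test's threshold. The casein kinase gene kin-20 had 15.4, 18.0, 15.5 and 20.4 CPM in L3 libraries, against 34.8, 32.3, 35.9 and 30.1 CPM in L2 libraries, a log2 fold change of -0.94 (SE 0.19, adjusted p = 0.000468). It was called with DESeq2's test, with library totals, with no filter on low counts and without L3 replicate 4. The Pumilio-related gene puf-9 had -0.67 (SE 0.21, adjusted p = 0.0267), with 29.4 ± 2.83 CPM in L3 and 46.6 ± 4.26 CPM in L2 (SD, n = 4 each). The only positive value was that of lin-29 (chromosome II, 11917642 to 11935343), a zinc finger factor of the larval-to-adult switch. It had 38.9, 33.4, 34.7 and 38 CPM in L3 libraries, against 15.6, 21.6, 17.7 and 21.8 CPM in L2 libraries (0.92, SE 0.28, adjusted p = 0.0194), so that the stages did not overlap while the change stayed just inside the minimum of 1. The RNA-binding protein gene lin-28 was already low in both stages, at 0.959 ± 0.344 CPM in L3 and 1.09 ± 0.242 CPM in L2, beside 11.3 CPM in L1. The period-like gene lin-42 had 27.1 ± 7.91 CPM in L3 and 34.7 ± 2.36 CPM in L2, which overlap (SD, n = 4 each). The genes daf-12 and mab-10 did not pass the filter, and lin-14 was not analysed here.

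**Figure D4:**
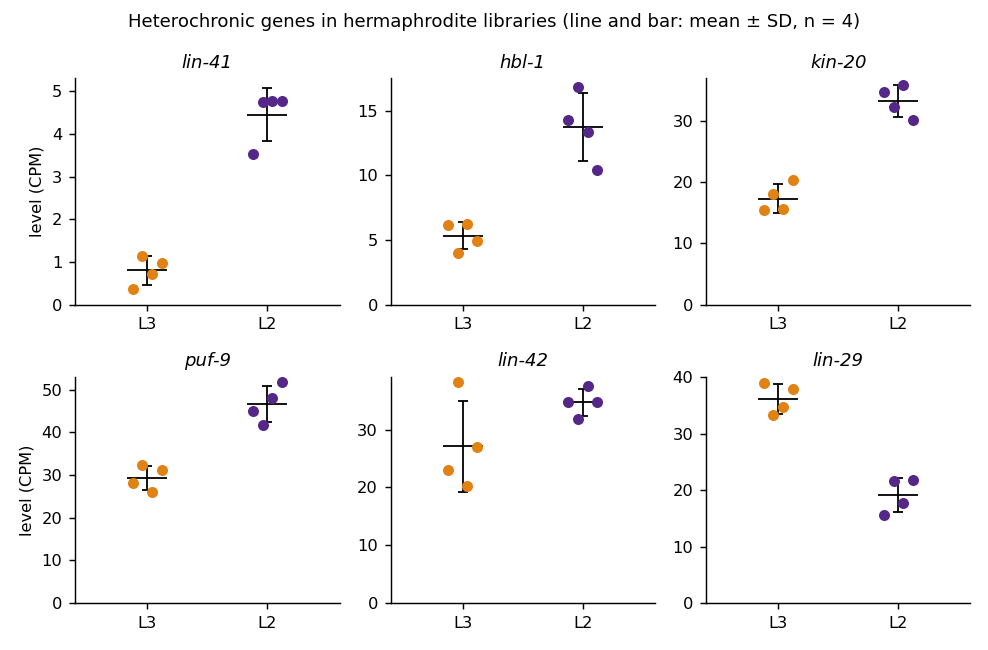
Levels of 6 heterochronic genes in CPM (y axis, from 0) in the 4 L3 (orange, left) and 4 L2 (purple, right) hermaphrodite libraries, each point a library and the black line and bar the mean ± SD. L3 and L2 points do not overlap for lin-41, hbl-1, kin-20, puf-9 and lin-29, of which only lin-29 is higher in L3, and they overlap for lin-42.

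The vulval precursor cells receive the epidermal growth factor LIN-3 from the gonadal anchor cell in L3. No gene of vulval induction or patterning was called among 42 tested, by edgeR or by DESeq2, where edgeR called 7.67% of all genes. At an unadjusted p of at most 0.05, 2 were higher and 5 lower. In edgeR 1 was called lower without L3 replicate 4 and 1 with library totals. The values were 2.60, 2.74, 2.86 and 1.96 CPM in L3 libraries and 2.65, 1.76, 1.09 and 1.95 CPM in L2 libraries for lin-3 (log2 fold change 0.47, SE 0.55, adjusted p = 0.672). The Hox gene lin-39 had 3.63 ± 1.24 CPM in L3 and 6.93 ± 2.94 CPM in L2 (-0.92, SE 0.50). The Notch ligand gene lag-2 had 0.547 ± 0.472 and 0.978 ± 0.308 CPM (-0.79, SE 0.55; SD, n = 4 each). In RNA of whole animals a change confined to a few cells may not be detectable, and let-23 and lin-12 did not pass the filter. Of 14 tested somatic gonad and sex muscle genes 3 fell (21.4%, against 2.31% of all genes) and 1 rose (7.14%, against 5.36%). In the test against the fold minimum itself none fell. The SoxC gene sem-2, which sets the sex myoblast fate, had 9.64, 9.18, 13.6 and 10.5 CPM in L3 libraries, against 19.97, 27.7, 24.4 and 22.3 CPM in L2 libraries (-1.14, SE 0.22, adjusted p = 0.000171). The zinc finger gene sem-4, which acts in the same lineage and in neurons, had 3.23 ± 0.78 CPM in L3 and 9.36 ± 2.34 CPM in L2. For tra-1, the Gli-type factor that specifies female somatic fate, the means were 0.794 ± 0.073 CPM in L3 and 2.41 ± 0.708 CPM in L2 (SD, n = 4 each). The call of tra-1 ended without replicate 1 of both stages (adjusted p = 0.0811). The member that rose was inx-22, an innexin that couples oocytes to the sheath and acts in the germline rather than the somatic gonad. It had 3.52, 1.93, 3.75 and 0.981 CPM in L3 libraries and 0.353, 0.176, 0 and 0.709 CPM in L2 libraries (3.05, SE 0.58). It did not pass the filter when the 8 libraries were fitted alone.

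Higher calls were more frequent in germline lists than over all genes. Of 41 tested germline RNA-binding and P granule genes 11 rose (26.8%, against 5.36%) and none fell. Among 14 meiotic chromosome genes 4 rose (28.6%) and none fell. Among 26 oocyte and eggshell genes 9 rose (34.6%) and 1, lin-41, fell (3.85%, against 2.31% of all genes). The first of these counts was 5 with library totals, 6 without L2 replicate 2 or 4 or with the 20 hermaphrodite libraries alone, 7 without L3 replicate 2 and 0 in the test against the fold minimum. The list as a whole took 0.165% ± 0.0236 of UMIs in L3 libraries and 0.190% ± 0.0082 in L2 libraries (SD, n = 4 each), which overlap. The meiotic count was 2 with library totals or with the 20 libraries alone, and 1 in the test against the fold minimum. The oocyte and eggshell count of higher calls was 1 in that test and 7 to 12 under the other settings. The P granule gene pgl-3 had 21.1, 25.5, 21.8 and 20.6 CPM in L3 libraries, against 6.18, 5.97, 9.53 and 6.55 CPM in L2 libraries (log2 fold change 1.65, SE 0.33, adjusted p = 0.000375). Its partner pgl-1 had 60.1 ± 12.6 CPM in L3 and 25.8 ± 5.28 CPM in L2. The germline helicase gene glh-3 had 3.61 ± 0.915 and 1.28 ± 0.167 CPM, and the Pumilio gene puf-11 had 7.61 ± 1.15 and 3.12 ± 1.02 CPM (SD, n = 4 each). The synaptonemal complex gene syp-4 (chromosome I, 6847511 to 6849923) had 8.53, 8.22, 6.97 and 7.85 CPM in L3 libraries, against 1.41, 2.28, 2.18 and 2.13 CPM in L2 libraries (1.97, SE 0.24, adjusted p = 5.61e-08), the smallest p of the meiotic list. The chromosome axis gene htp-3 had 9.40 ± 0.958 CPM in L3 and 3.10 ± 0.687 CPM in L2. The meiotic polo-like kinase gene plk-2 had 13.2 ± 2.07 and 5.48 ± 0.973 CPM, and the cohesin gene rec-8 had 4.51 ± 0.445 and 1.79 ± 0.839 CPM. The call of rec-8 ended without L2 replicate 2 or 4 (adjusted p up to 0.0774). Those of pgl-1, plk-2 and rec-8 ended with library totals, and those of plk-2 and rec-8 with the 20 libraries alone. All of the genes given here had a higher mean in L4 than in L3, and all but htp-3 a still higher one in young adults, as in pgl-3, with 59.2 CPM in L4 and 345 CPM in young adults.

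Genes of oocyte fate and of the sperm to oocyte decision were among those that rose. The zinc finger gene mex-5 had 15.6, 15.6, 18.8 and 19.6 CPM in L3 libraries, against 4.77, 3.86, 6.67 and 5.14 CPM in L2 libraries (log2 fold change 1.75, SE 0.24, adjusted p = 7.67e-07). The oocyte maturation gene oma-1 had 4.76 ± 0.866 CPM in L3 and 1.40 ± 0.504 CPM in L2, and the eggshell gene cbd-1 had 16.9 ± 3.80 and 6.86 ± 0.828 CPM. Of 24 tested sex determination and dosage compensation genes 3 rose (12.5%, against 5.36% of all genes). Another 2, tra-1 among them, fell (8.33%, against 2.31%), and the median log2 fold change of the 24 was 0.05. Those that rose were fem-3, which promotes sperm fate (4.88 ± 1.18 and 2.21 ± 0.301 CPM, log2 fold change 1.15), and the translational repressors fbf-2 (5.55 ± 0.890 and 2.35 ± 0.759 CPM) and gld-1 (6.66 ± 3.44 and 2.80 ± 0.310 CPM; SD, n = 4 each, L3 first). All 3 of these calls ended with library totals, and that of gld-1 with the 20 hermaphrodite libraries alone. That of fem-3 ended without L3 replicate 3, where the log2 fold change was 0.97. Those of fbf-2 and gld-1 each ended without any 1 of 5 libraries. For fbf-2 these were L2 replicates 2 and 4 and L3 replicates 1, 2 and 4 (adjusted p up to 0.114). For gld-1 they were L2 replicates 1, 2 and 4 and L3 replicates 2 and 4 (up to 0.161). Of the 26 tested oocyte and eggshell genes 22 had a positive log2 fold change, with a median of 1.21 over the 26. In 13 the L3 libraries lay wholly above the L2 libraries (50%, against 18.0% of all genes). The summed level of all 29, which depends most on the most abundant members, overlapped, at 288 to 319 CPM in L3 libraries and 273 to 371 CPM in L2 libraries. None of 29 DNA replication genes and none of 69 mitosis and cell cycle genes was called by edgeR or by DESeq2, where edgeR called 7.67% of all genes. At an unadjusted p of at most 0.05, 2 replication genes were higher and 0 lower, and 10 mitosis genes were higher and 2 lower. Without L2 replicate 1, 2 mitosis genes were called higher. The gene pcn-1, the sliding clamp of the replication fork, had 66.9 ± 7.75 CPM in L3 and 79.0 ± 7.40 CPM in L2.

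Among chromatin, ribosome and chaperone genes the calls were few. The linker histone genes hil-5 (205, 214, 224 and 199 CPM in L3 libraries, against 75.3, 85.0, 89 and 82.9 CPM in L2 libraries) and hil-4 (139 ± 16.7 CPM in L3 and 63 ± 10.9 CPM in L2) and the histone H3 gene his-74 (64.7 ± 2.85 and 26.6 ± 2.82 CPM) were among 5 of 48 histone genes that rose (10.4%, against 5.36% of all genes), or 2 with library totals and 3 with the 20 hermaphrodite libraries alone. In the opposite direction hil-7 had 3.15, 3.54, 5.36 and 5.15 CPM in L3 libraries, against 13.6, 16.3, 17.8 and 16.3 CPM in L2 libraries (log2 fold change -1.90, SE 0.23, adjusted p = 2.34e-08), beside 143 CPM in L1. Of 79 ribosomal protein genes only rpl-11.1 was called (1.27%, against 5.36%), with 1035, 925, 1238 and 1124 CPM in L3 libraries, against 391, 448, 500 and 467 CPM in L2 libraries (1.26, SE 0.33). The calls of rpl-11.1 and his-74 ended with library totals or with the 20 libraries alone, and that of hil-4 with library totals. Of 37 heat shock and chaperone genes 1 rose (2.70%), or 2 without L2 replicate 1. It was the small heat shock gene sip-1, which had 137, 147, 163 and 158 CPM in L3 libraries, against 24.9, 27.9, 29.3 and 36.1 CPM in L2 libraries (2.35, SE 0.25, adjusted p = 1.38e-09). Its young adult mean was 5724 CPM.

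Sperm genes were among the largest fold changes. A hermaphrodite makes its sperm in L4, from cytoskeletal major sperm proteins that near-identical gene copies encode, so that counts may be split between copies. Of 45 tested major sperm protein genes, counted with the ssp and ssq families, 18 rose (40.0%, against 5.36%) and none fell, and of 27 other sperm genes 11 rose (40.7%). With the 8 libraries fitted alone these counts were 11 and 6, and without L3 replicate 3 the other sperm genes that rose numbered 7. In the first list 22 members had no count in the L2 libraries. With those at their lower bound and 9 members at or under the floor in both stages left out, the median log2 fold change was 3.61, against 4.69 as fitted. Levels of msp-64 (chromosome II, 5809947 to 5810330) were 9.64, 17.1, 17.2 and 10.8 CPM in L3 libraries, against 0.177, 0, 0 and 0 CPM in L2 libraries, a ratio of 341 with a counting interval of 60.8 to 13520. The gene msp-142 had 2.97, 6.12, 6.08 and 5.15 CPM in L3 libraries and no count in L2 libraries, at least 41.6-fold higher than the floor of 3 counts over the 4 L2 libraries. On the same bound C04G2.9, a gene with no function given in the files used here, was at least 74.8-fold higher with 9.0 ± 3.02 CPM in L3, and the nematode-specific peptide gene nspd-2 at least 49.2-fold with 6.09 ± 1.81 CPM (SD, n = 4). Levels of ssq-1 were 8.53, 14.8, 11.8 and 9.32 CPM in L3 libraries, against 0.884, 0.527, 0.953 and 1.24 CPM in L2 libraries (log2 fold change 3.60, SE 0.30, adjusted p = 2.67e-12). Levels of T27A3.4 were 34.2 ± 7.16 CPM in L3 and 0.112 ± 0.135 CPM in L2. In all, 23 of the 435 genes that rose had no count in any L2 library.

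Levels of the sperm genes in L3 hermaphrodites were small beside later hermaphrodite stages and beside L3 males. The summed major sperm protein level was 86.4, 143, 128 and 89.8 CPM in L3 libraries and 2.12, 2.28, 2.18 and 3.19 CPM in L2 libraries, while it was 555 to 662 CPM in L3 males and 2531 to 3540 CPM in L4 hermaphrodites. Of 11 tested genes of a list of male markers 5 rose (45.5%, against 5.36% of all genes) and 6 were not called. Not all of them are confined to males. The study saw its ins-39 reporter in AFD and ASK neurons of young adult hermaphrodites, and described a mab-3 peak at sexual maturation in both sexes, higher in males. The summed level of the 13 markers that had a value was 37.7, 45.3, 40.7 and 38.8 CPM in L3 hermaphrodite libraries and 5.48, 4.92, 3.95 and 5.67 CPM in L2 hermaphrodite libraries. In males the same sum was 529 to 607 CPM in L3 and 182 to 214 CPM in L2, so that the L3 hermaphrodite mean was 7.01% of the L3 male mean and the L2 hermaphrodite mean 2.52% of the L2 male mean. Several defining markers stood at the floor in L3 hermaphrodites, among them pkd-2 and clec-207 with 1 count each over the 4 libraries, although both were also low in L3 males (0.044 and 0.493 CPM). The gene Y39B6A.9 (chromosome V, 19136506 to 19139094) had 8.53, 11.9, 10.0 and 7.36 CPM in L3 hermaphrodite libraries, against 0.530, 0.176, 0.408 and 0.709 CPM in L2 hermaphrodite libraries, and its mean in L3 males was 224 CPM. For R01E6.5 the values were 10.6, 10.5, 9.83 and 9.56 CPM in L3 libraries and 0, 0, 0.136 and 0.177 CPM in L2 libraries, with 122 CPM in L3 males. The DM domain genes, some of which act in male development, gave 3 higher calls among 7 tested (42.9%, against 5.36% of all genes). They were mab-3 (6.95 ± 1.49 CPM in L3 and 0.985 ± 0.445 CPM in L2, with 72.5 CPM in L3 males), dmd-3 (5.42 ± 1.48 and 0.044 ± 0.088 CPM, with 9.35 CPM in L3 males) and dmd-8 (3.58 ± 0.882 and 0.377 ± 0.232 CPM, with 2.54 CPM in L3 males; SD, n = 4 each). The hedgehog-related gene grl-26 had 4.64, 4.83, 5.54 and 4.17 CPM in L3 libraries and no count in L2 libraries, at least 39.3-fold above the floor, and 52.7 CPM in L3 males. The receptor gene srj-49 had 5.30 ± 0.820 CPM in L3 and 1.81 ± 0.421 CPM in L2, with 124 CPM in L3 males. Its call ended without L2 replicate 1 or 3 or L3 replicate 2 or 3 (adjusted p up to 0.0873), and also with library totals or the 20 hermaphrodite libraries alone.

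As a share of the mean in L3 males, the L3 hermaphrodite mean was 4.21% for Y39B6A.9, 4.26% for srj-49, 8.30% for R01E6.5, 9.09% for grl-26, 9.58% for mab-3, 13.7% for msp-64 and 58.0% for dmd-3. Of the markers not called, K09C8.2 (5 counts in L3 hermaphrodites) had 6.81%, clec-207 (1 count) 9.41%, ins-39 11.8% and cwp-1 (9 counts) 12.25%. With 1 to 4 counts in L3 hermaphrodites, cwp-2 had 49.65%, pkd-2 106% and cwp-5 258%. The gene cwp-4 had 3 counts in L3 hermaphrodites and 0 CPM in L3 males. Among the 435 genes that rose, 92 had a mean in L3 males more than 3 times that in L3 hermaphrodites (21.1%, against 8.01% of all genes tested). Libraries were barcoded and then pooled before amplification. Whether male RNA, later-stage animals or expression in the L3 hermaphrodites themselves had a part in these low levels was not tested.

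Vitellogenins, the yolk proteins, are made by the adult hermaphrodite intestine for the oocytes, and 3 of 6 rose, against 5.36% of all genes. The 6 together took a mean of 0.001258% of UMIs in L1, 0.000159% in L2 and 0.001804% in L3 hermaphrodites. The L2 mean was thus below the L1 mean as well as the L3 mean. Levels of vit-1 (chromosome X, 7727889 to 7733168) were 10.8, 13.1, 12.5 and 8.58 CPM in L3 libraries, against 0.177, 0.351, 0.817 and 0.709 CPM in L2 libraries (log2 fold change 4.36, SE 0.37, adjusted p = 7.42e-12). For vit-2 the values were 2.60, 6.12, 4.83 and 2.94 CPM in L3 libraries and 0, 0.351, 0 and 0 CPM in L2 libraries, a ratio of 52.1 with a counting interval of 14 to 437. The related gene vit-6 had 3.10 ± 1.84 CPM in L3 and 0.123 ± 0.167 CPM in L2 (SD, n = 4 each). The means of vit-1, vit-2 and vit-6 were 150, 663 and 753 CPM in L4 and 920, 4774 and 6642 CPM in young adults, and 2.81, 0.612 and 0.513 CPM in L3 males. The homeobox gene ceh-60, a Pbx-type factor that acts on vitellogenin transcription in the intestine, had 6.31, 4.51, 9.11 and 6.13 CPM in L3 libraries, against 0.707, 0.878, 0.680 and 1.59 CPM in L2 libraries (2.74, SE 0.43, adjusted p = 8.34e-06).

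Some intestinal and lipid genes rose. Of 41 tested intestinal genes 4 rose (9.76%, against 5.36% of all genes) and none fell, or 2 with library totals. A positive log2 fold change was seen in 36, and 19 had L3 libraries wholly above L2 libraries (46.3%, against 18.0% of all genes), with a median of 0.53. The cathepsin B-like protease gene cpr-4 had 752, 773, 1007 and 810 CPM in L3 libraries, against 282, 257, 287 and 321 CPM in L2 libraries (log2 fold change 1.54, SE 0.22, adjusted p = 1.54e-06). Its relative cpr-3 had 51.8 ± 2.15 CPM in L3 and 22.1 ± 2.60 CPM in L2. The fatty acid desaturase gene fat-5 had 39.1 ± 4.45 and 16.4 ± 3.20 CPM, and dod-19 had 408 ± 37.9 and 173 ± 17.2 CPM (SD, n = 4 each). The call of dod-19 ended without replicate 1 of both stages (adjusted p = 0.0511). The gene that rose with the highest mean count was far-2 (chromosome III, 9081828 to 9082511), a fatty acid and retinol binding protein, with 5508, 5164, 5788 and 6593 CPM in L3 libraries, against 1519, 1610, 1865 and 1630 CPM in L2 libraries (1.80, SE 0.21, adjusted p = 2.40e-08). Fatty acid oxidation genes ech-1 (15 ± 2.25 and 4.90 ± 1.36 CPM) and acdh-1 (9.97 ± 1.25 and 2.77 ± 0.277 CPM) rose too, among 6 of 72 fatty acid and lipid enzymes that rose (8.33%) and 1 that fell (1.39%, against 2.31% of all genes). The lower call ended without any 1 of L2 replicates 1 and 4 and L3 replicates 1, 2 and 3. Of 84 tested C-type lectins, a family with many intestinal members, 9 rose (10.7%, against 5.36% of all genes), or 4 with library totals. Among them were clec-49 (66.8 ± 7.74 and 17.8 ± 2.73 CPM) and clec-50 (1502 ± 84.2 and 687 ± 70.9 CPM). The 1 lectin that fell (1.19%, against 2.31%) lost its call without any 1 of L2 replicate 3 and L3 replicates 1, 3 and 4. With library totals the calls of cpr-3, dod-19 and clec-50 ended, and that of dod-19 also with the 20 hermaphrodite libraries alone. The glutathione transferase gene gst-38 had 127 ± 14.7 CPM in L3 and 29.5 ± 3.44 CPM in L2.

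Among 59 tested nuclear hormone receptors 3 rose and 3 fell (5.1% each, against 5.36% and 2.31% of all genes). The share that rose was thus near that over all genes. With library totals the counts were 1 and 5, and in the test against the fold minimum itself 1 and 0. The largest change was in nhr-234, with 17.6, 14.2, 20.6 and 17.9 CPM in L3 libraries, against 0.884, 1.58, 1.5 and 1.95 CPM in L2 libraries (log2 fold change 3.55, SE 0.38, adjusted p = 2.35e-09). The gene nhr-114, which acts in the intestine on the response to diet, had 30.5 ± 3.15 CPM in L3 and 13.9 ± 1.19 CPM in L2 (SD, n = 4 each), and its call ended with library totals. Of 32 tested nlp genes 4 rose (12.5%, against 5.36% of all genes) and none fell. With library totals or the 20 hermaphrodite libraries alone 2 rose. Among the 4 were the hypodermal antimicrobial peptide genes nlp-27 and nlp-26. Levels of nlp-27 were 404, 456, 449 and 449 CPM in L3 libraries, against 140, 158, 174 and 179 CPM in L2 libraries (1.43, SE 0.23, adjusted p = 1.37e-05). Those of nlp-26 were 100, 114, 121 and 116 CPM in L3 libraries, against 32.7, 40.7, 42.7 and 54.2 CPM in L2 libraries.

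Some neuronal genes fell. Of 39 tested synaptic and neuronal genes 5 fell (12.8%, against 2.31%) and none rose. The count was 11 with library totals, 3 without any 1 of L2 replicates 1 and 3 and L3 replicate 2, 3 with the 20 hermaphrodite libraries alone or without replicate 1 of both stages, and 0 in the test against the fold minimum. A negative log2 fold change was seen in 34, and 18 had L3 libraries wholly below L2 libraries (46.2%, against 11.7% of all genes). Levels of unc-17 (chromosome IV, 3618259 to 3624699), the vesicular acetylcholine transporter, were 7.97, 10.2, 8.76 and 9.07 CPM in L3 libraries, against 22.4, 21.4, 23.4 and 23.6 CPM in L2 libraries (-1.33, SE 0.21, adjusted p = 9.15e-06). The presynaptic calcium channel gene unc-2 had 5.38, 7.09, 8.4 and 7.6 CPM in L3 libraries, against 15.6, 18.4, 21.2 and 19.7 CPM in L2 libraries (-1.40, SE 0.24, adjusted p = 3.24e-05). The active zone gene unc-10 had 9.31 ± 2.14 CPM in L3 and 19.4 ± 2.14 CPM in L2. The call of unc-10 ended without L3 replicate 1 or 2 (adjusted p up to 0.0594) and with the 20 libraries alone. Outside that list syd-1, which assembles presynaptic sites, had 1.99 ± 0.528 and 6.45 ± 0.632 CPM (SD, n = 4 each). Of 43 tested homeobox genes 4 fell (9.30%, against 2.31%), only ceh-60 rose, and 36 had a negative log2 fold change. Without L2 replicate 3, without L3 replicate 2 or with the 20 libraries alone 2 fell, and without L3 replicate 4, 2 rose. The ZEB factor zag-1, which acts in neuronal differentiation, had 5.93, 9.18, 7.86 and 9.32 CPM in L3 libraries, against 26.7, 28.4, 26.4 and 26 CPM in L2 libraries (-1.74, SE 0.28, adjusted p = 1.47e-05). The gene hmbx-1 had 18.1 ± 2.35 CPM in L3 and 44 ± 5.45 CPM in L2. For unc-30, which specifies GABA neurons, the means were 0.744 ± 0.392 CPM in L3 and 2.15 ± 0.303 CPM in L2, and the call ended without L2 replicate 3 or L3 replicate 1 or 2 (adjusted p up to 0.0758) or with the 20 libraries alone. The insulin-like peptide gene ins-5 had 16.3 ± 2.34 CPM in L3 and 33 ± 2.44 CPM in L2, a log2 fold change of -1.02 that fell under the minimum without L2 replicate 1 or L3 replicate 1 (-0.95 at the least). The means of unc-17, unc-2, unc-10, zag-1 and unc-30 were at their highest in L1, where unc-17 had 46.0 CPM, unc-2 61.2 CPM and zag-1 55.6 CPM, while those of syd-1, hmbx-1 and ins-5 were highest in L2. None of 23 FMRFamide-like peptide genes and none of 33 body wall muscle genes was called by edgeR or by DESeq2, where edgeR called 7.67% of all genes. At an unadjusted p of at most 0.05, 1 peptide gene and 6 muscle genes were higher, and 0 and 2 lower. Without L3 replicate 1, 1 muscle gene was called higher. The myosin light chain gene mlc-2 had 3413 ± 251 CPM in L3 and 2249 ± 202 CPM in L2 (0.60, SE 0.18, adjusted p = 0.0170), under the fold minimum.

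The largest decrease among the genes called was in the pharynx. The gene phat-5 (chromosome V, 4121489 to 4122515), of a peptide family made in the pharyngeal glands, had 0.556, 0.967, 0.536 and 1.47 CPM in L3 libraries, against 12.9, 12.8, 17.8 and 15.2 CPM in L2 libraries (log2 fold change -4.07, SE 0.50, adjusted p = 5.30e-08). Its mean was 34.7 CPM in L1 and 0.124 CPM in L4. It was among 3 of 22 tested pharyngeal genes that fell (13.6%, against 2.31% of all genes), with none that rose. The pharyngeal cuticle genes abu-14 and pqn-13 were the others, at 84.4 ± 7.87 CPM in L3 and 226 ± 73.9 CPM in L2 for abu-14 and 8.02 ± 2.46 and 23.8 ± 6.96 CPM for pqn-13 (SD, n = 4 each). The call of abu-14 ended without L2 replicate 3 (adjusted p = 0.0801). The uncharacterised X-linked gene C05G5.7 had 8.72, 8.22, 7.86 and 8.34 CPM in L3 libraries, against 56.9, 88.2, 63.7 and 59.5 CPM in L2 libraries (-3.01, SE 0.31, adjusted p = 2.23e-09).

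Lower calls were more frequent on the X chromosome. Of 1065 tested X-linked genes 48 fell (4.51%) and 28 rose (2.63%), while on chromosomes I to V between 1.26% and 2.74% of genes fell and between 3.95% and 7.89% rose. The median log2 fold change was -0.09 on X and 0.10 to 0.17 on the autosomes. These shares are given without a test, since genes are not replicates.

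The stage change in males, measured in other libraries, was close to that in hermaphrodites for most of these genes. Of the 435 genes that rose in hermaphrodites 297 also rose in males (68.3%, where 9.04% of all genes rose in males) and 427 had the same sign. Of the 187 that fell 64 also fell in males (34.2%, where 1.78% of all genes did) and 177 had the same sign. No gene was called in opposite directions. Over the 622 genes called in hermaphrodites the log2 fold changes of the sexes correlated at 0.90 and over all 8110 genes at 0.80, both across genes, which are not independent. For bli-6 the log2 fold change was 8.49 in males, for bli-2 7.37, for lin-41 -2.37, for hbl-1 -1.27 and for cut-2 -1.63.

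**Figure D5:**
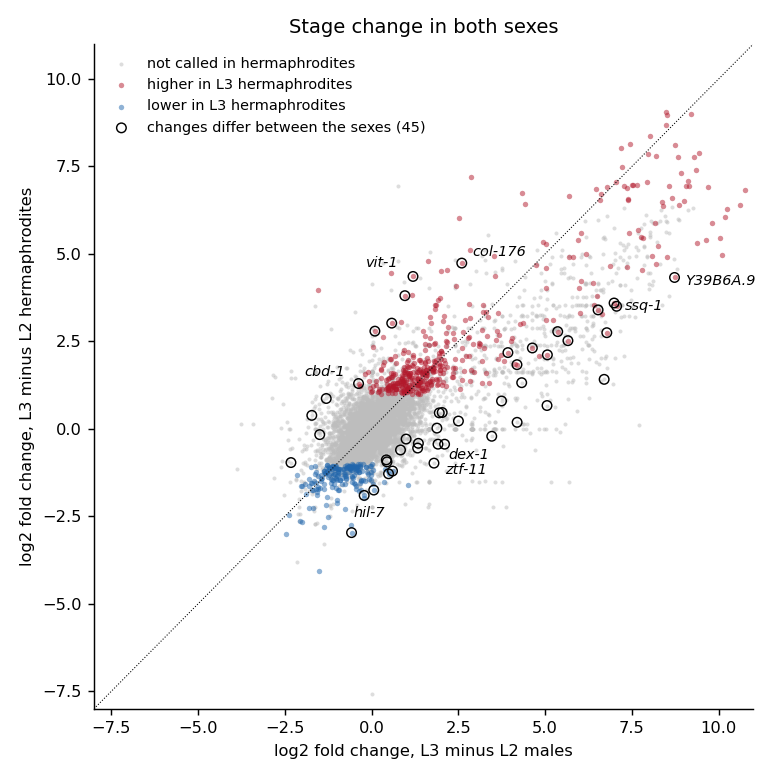
Log2 fold change of L3 minus L2 in hermaphrodites (y axis) against that in males (x axis) for the genes tested, with genes called higher in L3 hermaphrodites in red, lower in blue and the rest in grey; black rings mark the 45 genes whose changes differ between the sexes and the dotted line marks equal changes. Most coloured points lie near the dotted line, vit-1, col-176 and cbd-1 lie above it, and Y39B6A.9, ssq-1 and ztf-11 lie below it.

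The changes differed between the sexes for 45 genes (0.555%) by the test of the interaction, with a larger log2 fold change in hermaphrodites for 10 and a smaller one for 35. Larger in hermaphrodites were vit-1 (a hermaphrodite minus male difference of 3.16, SE 0.56, adjusted p = 0.00156), cbd-1 (1.67, adjusted p = 0.00807) and the collagens col-176 and col-140. For col-176 the values were 948, 1196, 1262 and 1213 CPM in L3 hermaphrodites and 38.2, 42.1, 39.2 and 53.5 CPM in L2 hermaphrodites, against means of 2302 CPM in L3 males and 380 CPM in L2 males (difference 2.14, adjusted p = 0.00468). For col-140, with 12.9 ± 4.76 CPM in L3 and 1.57 ± 0.478 CPM in L2 hermaphrodites, the difference was 2.44 and its call ended without L2 male replicate 4 (1.97, adjusted p = 0.0719). The insulin-like gene ins-39 had 2.26 ± 1.15 CPM in L3 and 1.21 ± 0.192 CPM in L2 hermaphrodites, and 19.1 and 47.3 CPM in L3 and L2 males (difference 2.17, adjusted p = 0.00256), and F08A8.4 had a difference of 2.11. Smaller in hermaphrodites were Y39B6A.9 (-4.40, adjusted p = 0.000635), ssq-1 (-3.39, adjusted p = 0.000518), K01D12.7 (-2.95) and acdh-1 (-2.35), which rose in both sexes. The interaction count depended on the fit, with 33 larger and 124 smaller when the 16 L2 and L3 libraries were fitted alone, and 16 and 80 with DESeq2. The zinc finger gene ztf-11 had 2.21 ± 1.05 CPM in L3 and 4.30 ± 1.02 CPM in L2 hermaphrodites, and 21.5 and 6.15 CPM in L3 and L2 males (difference -2.78, adjusted p = 0.00067). The zona pellucida genes dex-1 and cutl-24 of the apical matrix also had smaller values in hermaphrodites, with differences of -2.35 for dex-1 and -2.54 for cutl-24, neither of which was called in hermaphrodites. The linker histone gene hil-7, which fell in hermaphrodites, had 12 CPM in L3 males and 14 CPM in L2 males (difference -1.69, adjusted p = 0.00165).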

How the data were processed

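Whole worms grown at 25 °C were pooled by stage and sex, and total RNA was sequenced by bulk MARS-seq. The deposited counts are UMI counts per gene. According to the methods and the labels, the authors used cutadapt for trimming, STAR 2.4.2a for alignment (genome WBcel235) and HTSeq for counting after removal of UMI duplicates. The annotation release was not given in the sources used here. Counts of 3′ ends can split reads between near-identical genes. A further 120 normalized or batch-adjusted columns and 315 columns of the authors' comparisons (fold changes and p-values) were not used.

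All 40 libraries were fitted with edgeR 4.0.16 in R 4.3.3 (TMM scaling, filterByExpr with a minimum count of 10 and total of 15, robust quasi-likelihood test, 10 group means), with the contrast L3 minus L2 in hermaphrodites and its difference from males. The thresholds of a call (0.05 for the adjusted p, 1 for the size of the log2 fold change, 5 for the mean normalized count) follow the study's methods. Standard errors are the log2 fold change over the root of F. A gene with no count in L2 was compared with 3 counts, taken as the floor of all 4 libraries together, and 1 to 3 counts gave a ratio with a 95% counting interval, both of which cover counting error only. The labels name 4 biological repeats per group. The fit was checked on simulated counts.

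The members and gene lists were chosen with earlier results of these data known, and 4 lists lost wrongly matched genes after the table was read. The lists overlap. Genes named were the 15 largest non-overlapping changes per direction with a mean count of at least 20, the 8 most abundant per direction, up to 4 called members per list and direction or, where a list had none, its 2 most abundant members, the heterochronic genes and a set of vulval genes, the 6 strongest interactions per direction, and label markers; any other is said to be chosen after its values were seen. Alternatives were DESeq2 1.42.0 (Wald test, size factors), glmTreat, no filter, thinned counts, fewer libraries, a mean count over all libraries, a replicate block and leaving out each library. Library totals with no TMM factors and leaving out replicate 1 of both stages were added after seeing the data.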

Additional observations from a re-analysis of the deposited data

Results flagged for a closer look

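In 14 of 222 groups of 4 libraries (6.31%) 1 library stood apart from the other 3. A chance rate of about 1 in 20 does not apply to groups with counts near 0. Where 3 libraries have no count, any count in the other is flagged whatever its size. That was so in L2 for msp-64, vit-2 and dmd-3, whose flags therefore carry no information. Flagged in L3 libraries were lag-2 in replicate 3 (1.25 CPM), pqn-13 in replicate 1 (11.7 CPM) and nlp-27 in replicate 1 (404 CPM). Among L2 libraries they were col-49 (2.3 CPM), lin-41 (3.53 CPM), msp-64 (0.177 CPM) and dmd-3 (0.177 CPM) in replicate 1, col-140 (2.28 CPM) and vit-2 (0.351 CPM) in replicate 2, tra-1 (1.36 CPM), pgl-3 (9.53 CPM), gld-1 (3.27 CPM) and abu-14 (336 CPM) in replicate 3, and dod-19 (147 CPM) in replicate 4.

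The stage change differed between hermaphrodites and males by the test of the interaction in 14 named genes. The hermaphrodite minus male difference in log2 fold change was positive for vit-1 (3.16), col-140 (2.44), ins-39 (2.17), col-176 (2.14), F08A8.4 (2.11) and cbd-1 (1.67). It was negative for Y39B6A.9 (-4.40), ssq-1 (-3.39), K01D12.7 (-2.95), ztf-11 (-2.78), cutl-24 (-2.54), acdh-1 (-2.35), dex-1 (-2.35) and hil-7 (-1.69).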

How the results depend on the processing

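Leaving out 1 library at a time gave 371 to 416 higher and 143 to 165 lower genes. A test against the fold minimum itself (glmTreat) gave 181 higher and 13 lower, library totals gave 391 lower, and leaving out replicate 1 of both stages gave 123 lower, 108 of them among the 187. Requiring the mean count over all 40 libraries gave 644 higher, of which 431 were among the 435. Of 98 named genes called, 70 were tested in every alternative and kept their call in all but glmTreat, which kept 48 of the 98. Another 2, inx-22 and vit-6, kept theirs but did not pass the filter with the 8 libraries alone. The other 26 lost it in at least 1 alternative, 15 of them with library totals. The only change of sign among named genes was in lin-28, not called, at -0.37 to 0.061 when single libraries were left out. The interaction counts go by the sign of the hermaphrodite minus male difference, not by the size of the change. Positive differences numbered 33 and negative ones 124 when the 16 L2 and L3 libraries were fitted alone, and 68 and 135 with the replicate block added. They numbered 16 and 80 with DESeq2, and 1 and 9 with glmTreat, and library totals gave 83 negative ones. Replicate numbers were not taken as pairs, since 1 of the 4 correlations was near 0: deviations from the group means correlated at 0.51, 0.012, 0.152 and 0.27 between same-numbered L3 and L2 libraries, where L3 replicates 1, 3 and 4 correlated best with their own number and L3 replicate 2 with L2 replicate 4 (0.118). A replicate block within sex gave 419 higher and 179 lower, and with the 8 libraries alone 390 and 228. Causes were not tested. Genes at or under the floor of 3 counts in both stages were too shallow for a fold.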
